A study of Mus musculus with 58 samples.

Results

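Lithium was compared with vehicle in the prefrontal cortex of mice heterozygous for a knock-in allele of Tbl1xr1. All libraries titled heterozygous (HT) and lithium (10, from 5 females and 5 males) were set against all libraries titled HT and vehicle (10, from 5 females and 5 males), with the same weight for each sex. These are 20 of the 58 libraries of the study, and 16606 of the 18088 genes in the table were tested. Both groups were C57BL/6J mice carrying the same heterozygous knock-in, and were analysed at postnatal day 25 after 3 weeks of lithium or vehicle taken in with the mother's milk from day 3 to day 24. The other groups used here are wild-type (WT) mice on lithium (8 libraries) or vehicle (10 libraries) and HT mice on fluoxetine (10 libraries), of the same strain, age and route. The labels give neither the lithium dose, nor the dam or litter of a pup, nor the sequence change of the knock-in. Litter and drug therefore cannot be told apart. Whether the libraries of a group come from different animals is not said in the labels, and the p-values cover the variation among libraries alone, which may be technical.

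Lithium is a mood stabiliser with a pair of well-known enzyme targets. It inhibits glycogen synthase kinase 3 (GSK3), which marks β-catenin for destruction within a complex with APC and axin, and it inhibits the inositol monophosphatases that recycle inositol for phosphoinositide signalling. TBL1XR1 is a subunit of the NCoR/SMRT corepressor complex, takes part in the exchange of corepressors for coactivators, and binds β-catenin at Wnt target genes.

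The HT lithium libraries held 23.1 to 34.3 M recovered reads and the HT vehicle libraries 22.9 to 34.9 M. Pyramidal neuron genes were high in each of the 20 libraries (the vesicular glutamate transporter gene Slc17a7 lay between 37863 and 50423 normalised reads). Some libraries carried markers of neighbouring tissue. The 9 measured choroid plexus markers summed to 25797 normalised reads in HT lithium male 1 and to at most 442 in each of the others. The 15 striatal markers reached 36082 in HT lithium female 2 and 28549 in HT vehicle female 5, against medians of 13133 under lithium and 12399 under vehicle. The 15 olfactory bulb markers reached 44559 in HT lithium male 2, 35669 in HT lithium female 1 and 37254 in HT vehicle male 5, against medians of 11098 and 11963. Libraries with any of these sums above 2 times the median of all 58 numbered 4 under lithium and 2 under vehicle, and results without them are given below. In bulk tissue, fewer cells of a type and less RNA per cell cannot be told apart.

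**Figure D1:**
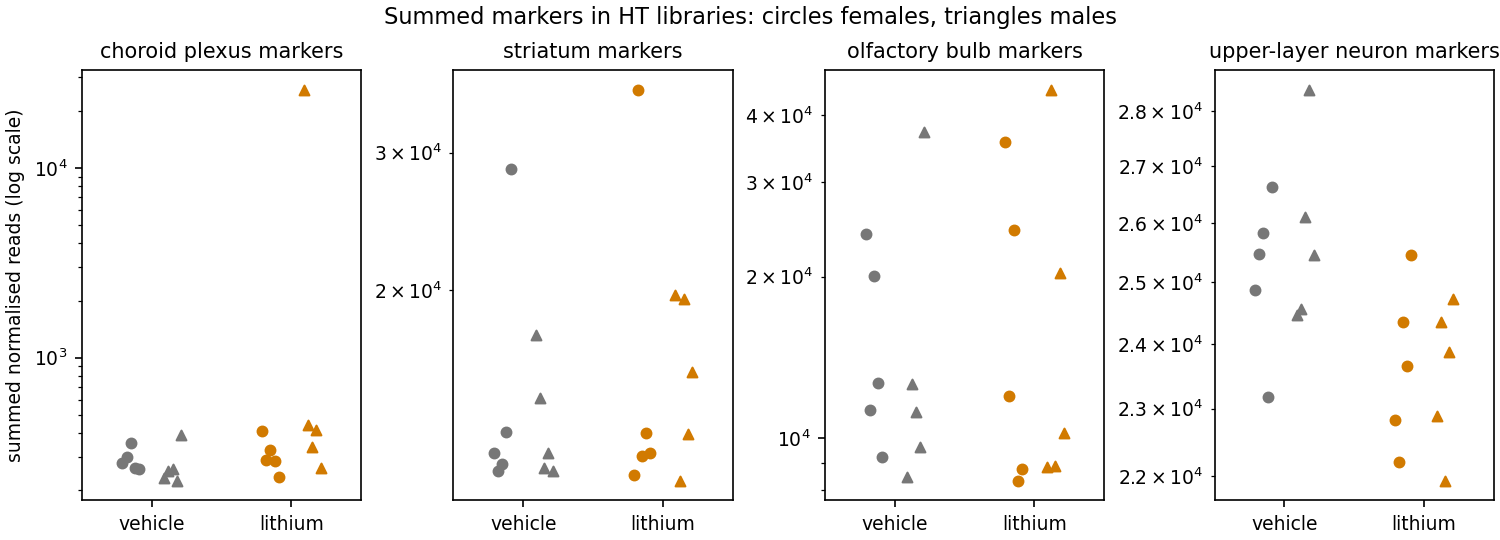
Summed normalised reads of 4 marker lists (y axis, log scale) in the 10 HT vehicle and 10 HT lithium libraries, 1 point per library. HT lithium male 1 stands alone for choroid plexus markers at 25797, libraries of both groups stand out for striatal and olfactory bulb markers, and the upper-layer neuron markers overlap between the groups.

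Tbl1xr1 itself lay between 2369 and 2641 normalised reads under lithium (median 2511) and between 2422 and 2747 under vehicle (median 2597). The ranges overlapped, and the change of -0.05 ± 0.03 on the log2 scale did not pass the test (adjusted p = 0.53, limma with Benjamini-Hochberg adjustment over the 16606 genes, as for every adjusted p here unless another tool is named). The gene's total was thus measured at a like level in both arms, and a total does not tell the 2 alleles apart.

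Lithium changed the level of 64 genes in HT cortex (0.385% of the genes tested), of which 28 rose (0.169%) and 36 fell (0.217%). The changes were small. The median rise was 16.5% and the median fall 12.4%, and 47 of the 64 changes were under 0.25 on the log2 scale. In that range 19 genes rose and 28 fell, while 9 rises and 8 falls were larger. The genes that fell had a higher median level than those that rose: it was 867 normalised reads per kilobase of the longest transcript, against 208 for the genes that rose and 157 for all genes tested. Of the falls, 14 of 36 (38.9%) belonged to the most abundant 10% of genes by that measure, against 2 of the 28 (7.14%). At an unadjusted p under 0.05 there were 2030 genes, or 12.2% (5.56% higher and 6.67% lower). Of all genes, 50% had a change above 0, which is the background for the direction counts of the gene lists below. Centring each library on its median gave 17 rises and 32 falls, and upper-quartile rescaling 34 and 37. The ranges of the 10 lithium and 10 vehicle libraries were fully apart for 4 genes (0.0241%), of which Hsp90ab1, Tnfaip1 and Lamp2 passed the adjusted threshold.

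**Figure D2:**
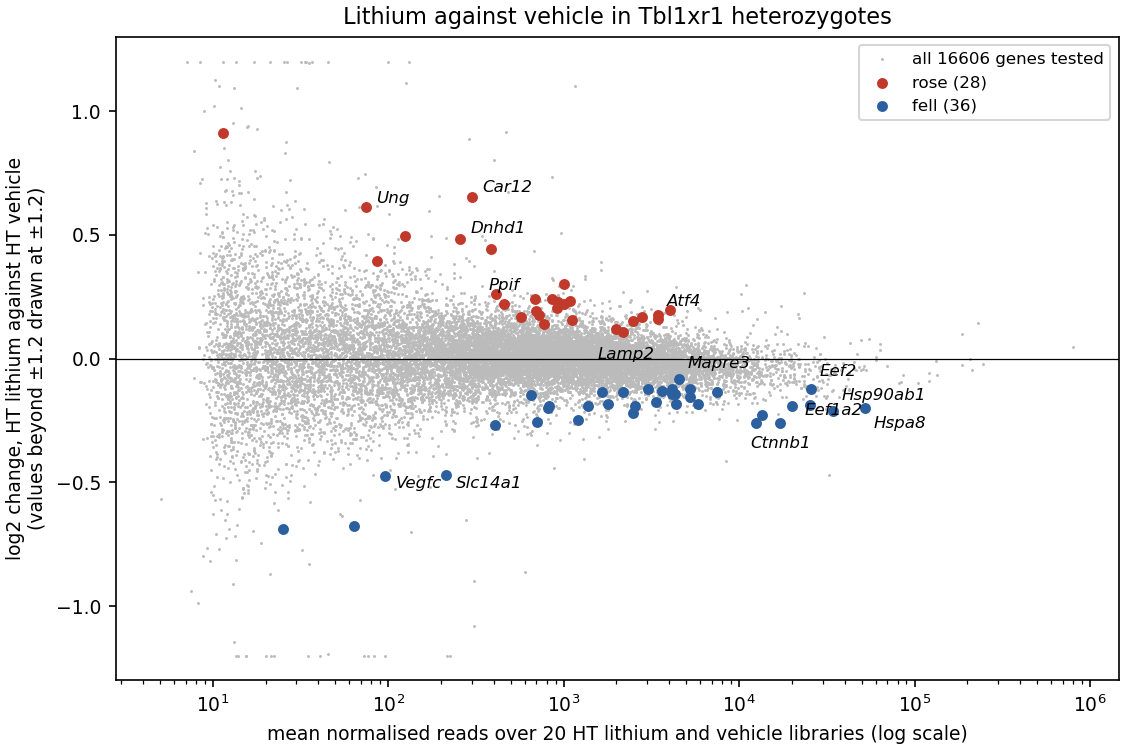
Log2 change of HT lithium against HT vehicle (y axis) against the mean level in the 20 libraries (x axis, normalised reads, log scale), with every tested gene in grey, the 28 genes that rose in red and the 36 that fell in blue. The falls of abundant genes such as Hspa8 and Hsp90ab1 are below 0.3 in size, and called changes above 0.4 in size, such as those of Car12, Ung and Vegfc, belong to genes of lower level. Values beyond the axis are drawn at its edge.

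The clearest change was a fall of Ctnnb1 mRNA, which encodes β-catenin, the Wnt effector that also links cadherins to the actin cytoskeleton. Ctnnb1 (chromosome 9, 120929216 to 120960507 on GRCm38, plus strand) lay between 14231 and 16787 normalised reads under lithium (median 15418) and between 16568 and 21544 under vehicle (median 18205). Of the 10 lithium libraries, 8 were below the lowest vehicle library. The change was -0.26 ± 0.04 on the log2 scale (SE), a fall of 16.5%, with an adjusted p of 6.39e-05, and each of the 10 lithium libraries was below the mean of the same-sex vehicle libraries. It was -0.27 in females and -0.25 in males. In females taken alone it was the 1 gene that passed the threshold (0.00602% of genes, adjusted p = 0.0462).

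The other genes of the destruction complex did not pass the test with Ctnnb1. Of 16 measured members of the list, 1 fell and none rose (0.217% and 0.169% of all genes). The median change was 0.01, close to the 0.00 of all genes. Apc, the scaffold that holds β-catenin for phosphorylation, had a change of -0.20 ± 0.07 (adjusted p = 0.17), and Gsk3b and Gsk3a, the kinases that lithium inhibits, had changes of -0.10 ± 0.05 and -0.07 ± 0.04 (adjusted p = 0.38 and 0.48). None of 22 Wnt transcription factors, feedback targets and secreted inhibitors passed. Lef1, a β-catenin partner on DNA and itself a Wnt target, stood at -0.21 ± 0.11 (adjusted p = 0.44), and 15 of the 22 had changes below 0 (median -0.03). Without the libraries rich in neighbouring tissue the Wnt list was even, with 11 below 0 and a median of 0.01. Cdh2, which encodes N-cadherin, the neuronal adhesion protein whose tail binds β-catenin, also fell. It lay between 2919 and 3281 under lithium and between 2999 and 4208 under vehicle, with a change of -0.18 ± 0.04 (adjusted p = 0.0263).

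The inositol pathway showed no called change. Of 20 measured genes of inositol synthesis, transport and recycling, none passed, 12 had changes above 0, and the median was 0.02. Impa1, the inositol monophosphatase gene, ranged from 1881 to 2115 under lithium and from 1833 to 2030 under vehicle, with a change of 0.07 ± 0.03 (adjusted p = 0.29). Itpk1, an inositol phosphate kinase gene, had the smallest p of the list, with a change of -0.12 ± 0.05 (adjusted p = 0.23). None of 11 genes of the NCoR/SMRT complex passed, and 8 of them had changes below 0.

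A few abundant chaperone and translation genes fell. Hsp90ab1, the constitutive cytosolic HSP90, lay between 30795 and 34097 normalised reads in all 10 lithium libraries (median 31480) and between 34184 and 39626 in all 10 vehicle libraries (median 36803). The groups did not overlap, and the change was -0.21 ± 0.04 (adjusted p = 0.00555). Hspa8, the constitutive HSP70 that also strips clathrin from vesicles, fell by 0.20 ± 0.05 on the log2 scale (adjusted p = 0.0348), with 8 lithium libraries below the vehicle range. These 2 were the called members of 23 measured cytosolic chaperone genes, of which 19 had changes below 0, with a median of -0.04 (0.217% of all genes fell). The list's median was -0.01 in females and -0.08 in males. Averaged over the list and relative to the vehicle mean, the median library stood at -0.03 under lithium and -0.02 under vehicle. In WT mice the list lay on the other side, with 19 of 23 lithium changes above 0 and a median of 0.03. The change of Hspa1b, a stress-induced HSP70 gene singled out after its values were seen, was -0.29 ± 0.16 (adjusted p = 0.48).

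Eef1a2, the form of elongation factor 1A that neurons and muscle use, lay between 17661 and 19832 under lithium and between 19550 and 22763 under vehicle, with 7 lithium libraries below the vehicle range (change -0.19 ± 0.04, adjusted p = 0.00572). Eef2, which moves the ribosome along the message, fell by 0.12 ± 0.03 (adjusted p = 0.0291). Eef1g, a subunit of the factor that recharges elongation factor 1A, fell by 0.18 ± 0.04 (adjusted p = 0.0238). The widely expressed paralogue Eef1a1 had a change of -0.03 ± 0.05 (adjusted p = 0.84). The 11 measured translation elongation genes were grouped after these values were seen. Of them 3 fell and none rose (0.217% and 0.169% of all genes), with 4 changes above 0, 7 below and a median of -0.03. On the other side, Eef1e1 and Eif5a2 had changes of 0.13 ± 0.04 and 0.11 ± 0.04 (adjusted p = 0.11 and 0.24). Of 79 measured cytosolic ribosomal protein genes, Rpl14 fell (change -0.22 ± 0.05, adjusted p = 0.0149) and Rps15a rose (0.16 ± 0.04, adjusted p = 0.023). Of all genes, 0.217% fell and 0.169% rose. Changes above 0 numbered 55 of 79, against 50% of all genes, with a median of 0.03. That median was -0.05 in females and 0.14 in males. Ribosomal protein, Hspa8, Hsp90ab1 and elongation factor genes have many processed copies in the genome, and no source used here says how reads that match several copies were divided.

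**Figure D3:**
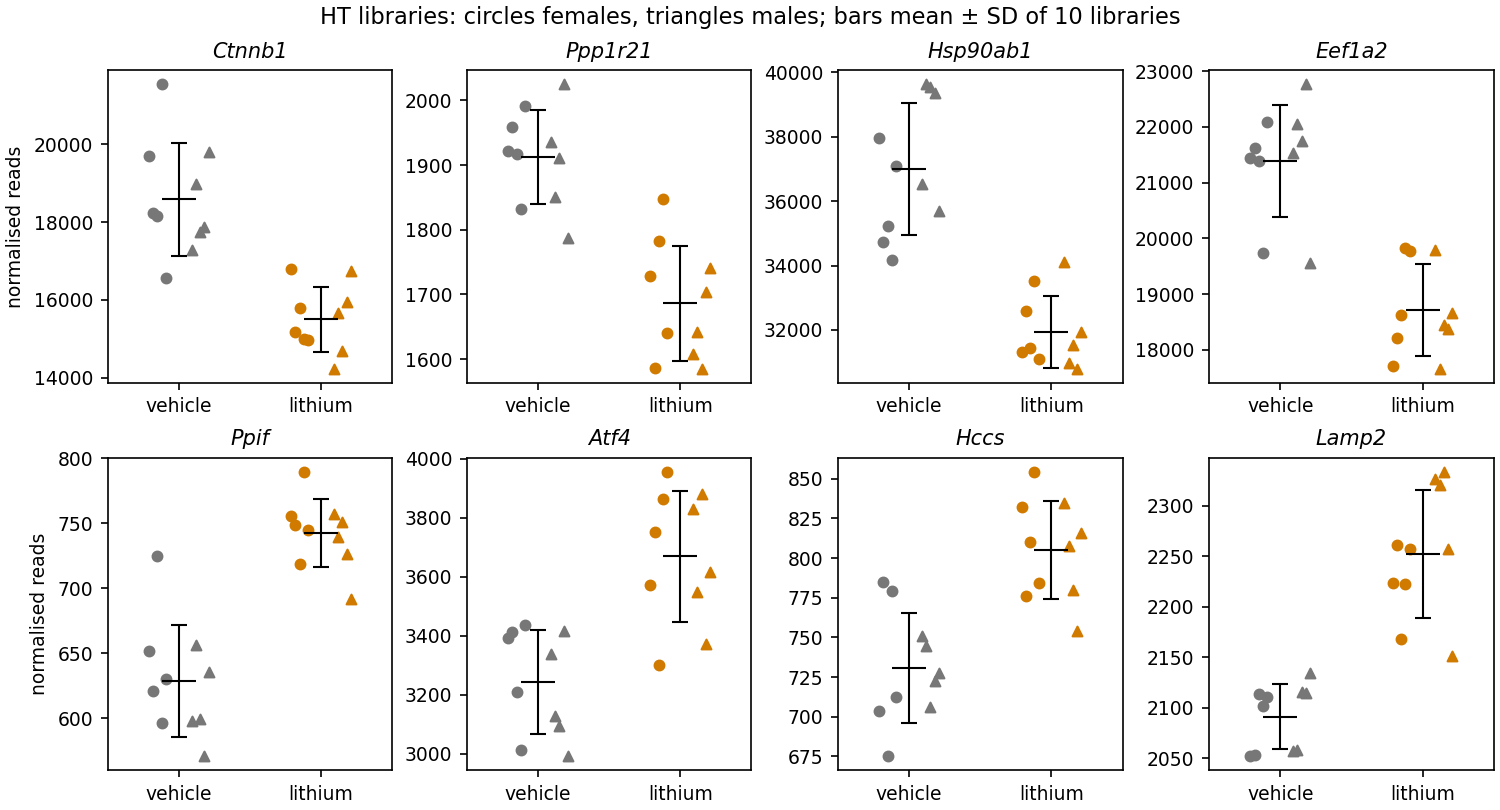
Normalised reads (y axes, not starting at 0) of 8 genes in HT vehicle (grey) and HT lithium (orange) libraries, with the mean and SD of 10 libraries per group. Ctnnb1, Ppp1r21, Hsp90ab1 and Eef1a2 are lower and Ppif, Atf4, Hccs and Lamp2 higher under lithium, and the groups do not overlap for Hsp90ab1 and Lamp2.

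Genes of the neuronal cytoskeleton and its membrane partners were also among those that fell. Map1b, a microtubule-associated protein of growing axons, lay between 22255 and 26608 under lithium and between 22676 and 30895 under vehicle (change -0.19 ± 0.05, adjusted p = 0.04). Basp1, a growth cone membrane protein, fell by 0.26 ± 0.06 (adjusted p = 0.0205). Mapre3 and Clip2, proteins that track growing microtubule ends, and Ckap5, a microtubule polymerase, fell by 0.08 ± 0.02, 0.14 ± 0.03 and 0.12 ± 0.03. The fall of Mapre3 was the smallest called change, and its lithium libraries (4287 to 4570) overlapped the vehicle libraries (4459 to 4828), with 6 of 10 below the vehicle range. Nck2, an adaptor between tyrosine kinases and actin, fell by 0.20 ± 0.04 (adjusted p = 0.0204). Mapre3, Clip2, Ckap5 and Nck2 were picked from the 64 for this function after their values were seen, and no enrichment was tested.

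Several regulators fell by less than 0.2 with little spread between libraries. Ppp1r21, a protein of early endosomes, had the second smallest p: 1585 to 1848 normalised reads under lithium against 1787 to 2024 under vehicle, with 9 lithium libraries below the vehicle range (change -0.18 ± 0.03, adjusted p = 0.000897). Smarcc2, the BAF170 subunit of the neural BAF chromatin remodeller, ranged from 6765 to 7442 under lithium and from 7406 to 8071 under vehicle, with 9 lithium libraries below the vehicle range (change -0.13 ± 0.03, adjusted p = 0.0072). It was the called member of 36 measured chromatin genes of neurodevelopmental disorders (0.217% of all genes fell). Of the 36, 26 had changes below 0, with a median of -0.03. Tnfaip1, an adaptor of a cullin ubiquitin ligase, lay between 1498 and 1659 under lithium and between 1680 and 1782 under vehicle, without overlap (change -0.14 ± 0.03, adjusted p = 0.0172). Sobp, Sh3rf1 (a scaffold of JNK signalling) and the aminopeptidase gene Npepps fell by 0.19 ± 0.04, 0.19 ± 0.04 and 0.12 ± 0.03. The RNA-binding protein genes Pqbp1 and Celf4 fell by 0.25 ± 0.04 and 0.23 ± 0.05 (adjusted p = 0.00555 and 0.0112).

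Mitochondrial genes made up a part of the rises. Ppif, which encodes cyclophilin D, a regulator of the mitochondrial permeability pore, lay between 692 and 790 normalised reads under lithium (median 747) and between 571 and 725 under vehicle (median 626). Of the lithium libraries, 8 were above the highest vehicle library (change 0.24 ± 0.04, adjusted p = 0.00137). Hccs, the enzyme that attaches haem to cytochrome c, rose by 0.14 ± 0.03 (adjusted p = 0.0127), from a vehicle range of 675 to 785 to a lithium range of 754 to 854. Atp5g3, a subunit of the rotor ring of ATP synthase, and Ndufb5, a subunit of complex I, rose by 0.20 ± 0.05 and 0.12 ± 0.03 (adjusted p = 0.0348 for both).

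Atp5g3 and Ndufb5 were the called members of 77 measured nuclear genes for subunits of oxidative phosphorylation (0.169% of all genes rose). Of these 77, 70 had changes above 0, against 50% of all genes, and the median change was 0.09. Relative to the mean of the vehicle libraries, the average log2 level of the list ran from -0.03 to 0.21 over the lithium libraries (median 0.10) and from -0.10 to 0.17 over the vehicle libraries (median -0.04). Thus 9 of 10 lithium libraries were above the vehicle mean, while 2 were above the highest vehicle library. The median change was 0.03 in females and 0.15 in males. It was 0.09 with 67 of 77 above 0 without the libraries rich in neighbouring tissue, and 0.08 with 65 of 77 above 0 once a trend of GC content and transcript length was removed. With each library centred on its median it was 0.08 with 66 above 0, and neither Atp5g3 nor Ndufb5 was called. The part of transcript length in these differences was not tested further: across all genes the change correlated with log length at r = -0.06 (males -0.15, females 0.06), as a description. In WT mice, whose libraries are separate, 70 of the 77 genes also had lithium changes above 0 (50.9% of all genes), with a median of 0.05. Fluoxetine against the same HT vehicle libraries likewise gave 70 of 77 above 0, with a median of 0.06. The lithium minus fluoxetine difference had a median of 0.02, with 1 gene higher under lithium. For lithium against vehicle in HT, the 13 mitochondrially encoded mRNAs had 4 changes above 0, 9 below, none called, and a median of -0.03. Without the libraries rich in neighbouring tissue their direction turned, with 11 of 13 above 0 and a median of 0.08.

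Atf4, the transcription factor made when the integrated stress response slows translation, rose. It lay between 3301 and 3955 under lithium (median 3683) and between 2992 and 3437 under vehicle (median 3272), with 8 lithium libraries above the vehicle range (change 0.18 ± 0.04, adjusted p = 0.0171). Sesn2, an ATF4 target that senses leucine and restrains mTORC1, rose by 0.26 ± 0.06 (adjusted p = 0.0348). These 2 were called among 20 measured genes of the integrated stress response (0.169% of all genes rose), 13 of which had changes above 0, with a median of 0.05. At an unadjusted p under 0.05, 7 of the 20 were higher and 1 lower, against 5.56% and 6.67% of all genes. In WT mice 16 of the 20 were above 0, with a median of 0.07. Chaperones and sensors of the endoplasmic reticulum went to the other side of 0: of 19 measured genes of the unfolded protein response none passed, 17 had changes below 0, and the median was -0.06. For fluoxetine against the same HT vehicle libraries, 4 of the 19 were above 0, with a median of -0.07. The lithium minus fluoxetine difference of the list had a median of -0.01. In WT mice this list lay on the other side of 0, with 16 of 19 lithium changes above it and a median of 0.03. Calr, the calcium-binding chaperone calreticulin, and Pdia4, a disulphide isomerase, were at -0.16 ± 0.05 and -0.30 ± 0.10 (adjusted p = 0.11 and 0.15). Without the libraries rich in neighbouring tissue the medians were 0.05 for the former list and -0.05 for the latter.

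Other genes that rose by less than 0.25 covered the lysosome, iron sensing and the nucleolus. Lamp2, a lysosomal membrane protein needed for autophagy, lay between 2151 and 2334 in all 10 lithium libraries and between 2052 and 2135 in all 10 vehicle libraries. The groups were apart, yet the change was 0.11 ± 0.03, the smallest rise called (adjusted p = 0.0487). It was the called member of 31 lysosomal and autophagy genes, whose median was 0.01 (0.169% of all genes rose). Fbxl5, the iron-sensing subunit of a ubiquitin ligase, rose by 0.15 ± 0.03 (adjusted p = 0.0127). Usp36, a nucleolar deubiquitinase, rose by 0.23 ± 0.05 (adjusted p = 0.019), and Ssr4, a subunit of the translocon-associated complex, by 0.24 ± 0.06 (adjusted p = 0.04). HT lithium male 3 held the highest value of Ssr4, at 1130 against 957 in the next male.

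The largest changes belonged to genes of low to middle level. Car12, a membrane carbonic anhydrase, rose by 0.65 ± 0.15 (adjusted p = 0.0291), with lithium libraries from 264 to 610 and vehicle libraries from 172 to 394. The highest value, 610, came from HT lithium male 1, the library rich in choroid plexus markers. With the choroid plexus markers as a covariate the change of Car12 was 0.53 (adjusted p = 0.064), and without the libraries rich in neighbouring tissue 0.52 (adjusted p = 0.18), so the call was lost in both. Ung, the uracil-DNA glycosylase, rose by 0.61 ± 0.15 (40.6 to 102 under vehicle, 65.7 to 115 under lithium, with 3 lithium libraries above the vehicle range). Dnhd1, an axonemal dynein heavy chain domain gene, rose by 0.48 ± 0.10 with 9 lithium libraries above the vehicle range. Yjefn3 rose by 0.49 ± 0.11, the small GTPase gene Rab34 by 0.44 ± 0.10 and the transcription elongation factor gene Tcea2 by 0.30 ± 0.07.

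Among the falls, Vegfc, a growth factor for lymphatic vessels and neural progenitors, ranged from 68.0 to 94.5 normalised reads under lithium and from 87.7 to 138 under vehicle (change -0.47 ± 0.09, adjusted p = 0.0103). Slc14a1, a urea transporter of astrocytes, ranged from 143 to 226 under lithium and from 196 to 317 under vehicle (change -0.47 ± 0.11, adjusted p = 0.0247). For these genes 7 and 8 lithium libraries were below the vehicle range. Napepld, an enzyme of endocannabinoid-like lipid synthesis, fell by 0.27 ± 0.06. Pcdhga12, a clustered protocadherin whose last exons are shared with its neighbours in the cluster, fell by 0.26 ± 0.06, and reads of the shared exons cannot be assigned to it with certainty. It was the called member of 57 clustered protocadherins, whose median was 0.00 (0.217% of all genes fell).

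Short stretches before the starts of called genes are shown for the motif found most often among them. RefSeq promoters on GRCm38.p6 were matched to 49 of the 64 genes, and 7 motifs were searched on both strands in the 250 bases before each start. The ETS motif CCGGAAGT, bound by GABPA, a regulator of mitochondrial genes, was found for 5 of the 49 (10.2%), against 5.97% of 12100 tested genes with a promoter. Both directions of change were among them: Ppif, Hccs and Zfp938 rose, and Ppp1r21 and Tnfaip1 fell. Capitals mark the motif, or its reverse complement ACTTCCGG, in the gene's own strand.
Ppif (chr14:25693948-25694007, plus strand): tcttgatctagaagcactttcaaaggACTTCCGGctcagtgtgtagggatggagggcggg
Hccs (chrX:169320373-169320420, minus strand): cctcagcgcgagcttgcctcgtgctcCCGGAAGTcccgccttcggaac
Zfp938 (chr10:82241276-82241325, minus strand): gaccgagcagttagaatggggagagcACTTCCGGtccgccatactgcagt
Ppp1r21 (chr17:88530087-88530123, plus strand): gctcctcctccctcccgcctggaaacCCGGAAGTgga
Tnfaip1 (chr11:78536283-78536342, minus strand): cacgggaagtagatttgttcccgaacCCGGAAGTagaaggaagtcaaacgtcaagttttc
The motif ended 3 bases before the start in Ppp1r21, 14 in Hccs, 16 in Zfp938, 48 in Tnfaip1 and 188 in Ppif. The TCF/LEF motif CTTTGAT was found for 1 called gene (2.04%, Lamp2) against 2.69% of all, the ATF4 and C/EBP motif TGATGNAA for 1 (Ung) against 2.47%, the CLEAR motif TCACGTGA of lysosomal genes for 1 (Eef2) against 1.58%, and the heat shock motif GAANNTTC for 1 (Rab34) against 6.24%. The CRE TGACGTCA and the palindromic NRF1 motif, which 2.91% and 1.69% of all genes held, were in none of the 49 windows. For Ctnnb1, none of the 7 was found, and the last 60 bases before the first of its RefSeq starts (chr9:120933340-120933399, plus strand) are shown in lower case throughout as it is the leading gene.
Ctnnb1: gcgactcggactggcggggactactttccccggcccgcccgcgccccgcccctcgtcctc
A match is a run of letters and not a bound site.

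No synaptic gene list had a called member, and the lists differed in direction. Of 22 glutamate receptor genes 19 had changes below 0 (median -0.06), of 22 postsynaptic scaffold and kinase genes 20 (median -0.06), and of 23 presynaptic genes 17 (median -0.04), while of 20 GABA signalling genes 12 were above 0 (median 0.01). In WT mice the lithium changes above 0 numbered 10 of 22, 9 of 22, 13 of 23 and 13 of 20 in these lists. Grin3a, an NMDA receptor subunit, had a change of -0.13 ± 0.04 (adjusted p = 0.12), Dlgap1, a scaffold beneath the postsynaptic density, -0.13 ± 0.04 (adjusted p = 0.12), and Syn1, the vesicle tether synapsin, -0.16 ± 0.04 (adjusted p = 0.065). Averaged over each list, 8 of 10 lithium libraries were below the vehicle mean for both the glutamate receptors and the scaffolds and 6 for the presynaptic genes, and the groups overlapped in each. Without the libraries rich in neighbouring tissue the medians were -0.06 and -0.02.

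**Figure D4:**
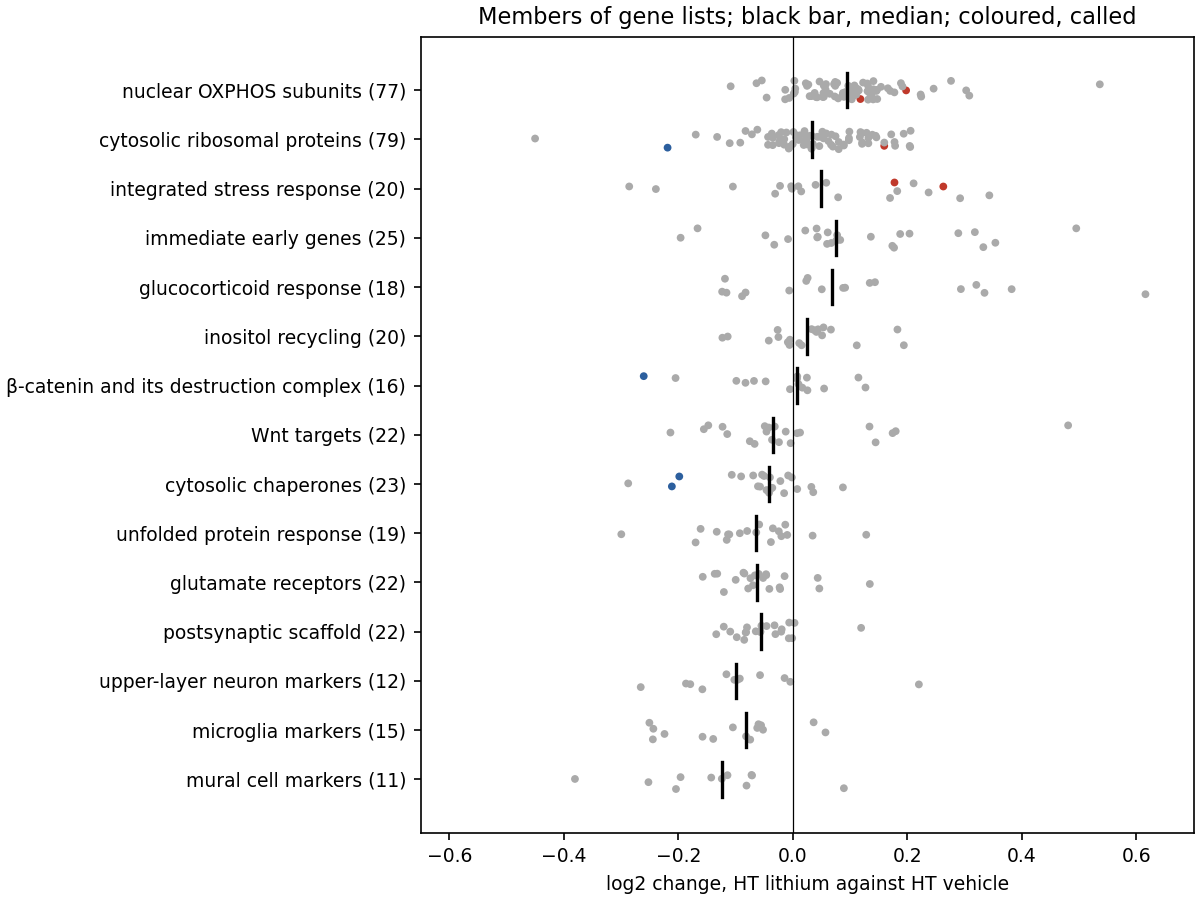
Log2 change of HT lithium against HT vehicle (x axis) for each measured member of 15 gene lists (number measured in brackets), with called genes in colour and the list's median as a bar. Of the 77 oxidative phosphorylation genes, 70 lie to the right of 0, and the plotted lists of the unfolded protein response, glutamate receptors, postsynaptic scaffold and 3 cell types lie mostly to the left.

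Markers of cortical cell types had no called member and leaned below 0 in most lists. Of 12 upper-layer neuron markers 11 had changes below 0 (median -0.10), led by Rorb (-0.27 ± 0.08, adjusted p = 0.14) and the transcription factor gene Pou3f2 (-0.16 ± 0.06, adjusted p = 0.22). Their sum ran from 21931 to 25453 under lithium and from 23182 to 28396 under vehicle. Of 15 microglia markers 13 were below 0 (median -0.08), with the fractalkine receptor gene Cx3cr1 at -0.24 ± 0.07 (adjusted p = 0.11), and of 11 mural cell markers 10 were below 0 (median -0.12), with the smooth muscle actin gene Acta2 at -0.38 ± 0.12 (adjusted p = 0.12). Changes below 0 also numbered 10 of 12 for oligodendrocyte precursor markers (median -0.07) and 14 of 19 for astrocyte markers (median -0.01). They numbered 9 of 13 for endothelial markers (median -0.06) and 10 of 14 for deep-layer neuron markers (median -0.05). Interneuron markers had 10 of 16 above 0 (median 0.02), and oligodendrocyte markers 10 of 20 (median 0.00). Under fluoxetine, against the same HT vehicle libraries, 2 of 12 upper-layer and 3 of 15 microglia markers had changes above 0. The mural and oligodendrocyte precursor lists had 0 of 11 and 1 of 12 above 0 there. In WT mice the lithium changes above 0 numbered 4 of 12, 4 of 15, 1 of 11 and 0 of 12 in these lists. Of the 14 deep-layer markers, 10 were above 0 in WT. In HT mice the microglia sum was 11409 to 15266 under lithium and 12543 to 16060 under vehicle, and the mural sum 6902 to 9424 and 7128 to 10489. No marker of any of the 15 cell type and tissue lists passed the test. Without the libraries rich in neighbouring tissue the medians were -0.07, -0.02 and -0.06 for upper-layer neurons, microglia and mural cells. The part of cell composition in the called changes was not tested.

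Whether lithium acted in the same way in WT mice was asked of separate libraries. WT lithium against WT vehicle gave 5 called genes (0.0301%), namely Ctnnb1, Ppp1r21, Atf4, Ccdc43 and 2810013P06Rik, and the first 3 were also called in HT. Ctnnb1 lay between 14728 and 17362 in WT lithium and between 17371 and 19514 in WT vehicle, without overlap, a change of -0.19 against -0.26 in HT. Atf4 changed by 0.19 in WT and 0.18 in HT, and Ppp1r21 by -0.16 and -0.18. Of the 64 genes called in HT, 62 had a WT change on the same side of 0, against 62.2% of all genes, and 30 (46.9%) also had an unadjusted p under 0.05 there, against 7.91% of all genes. For the 28 genes that rose the median change was 0.22 in HT and 0.14 in WT. For the 36 that fell it was -0.19 in HT and -0.07 in WT. Genes chosen for their change in HT tend to show a larger value there than in a second set of mice, since the choice used the HT values.

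The difference between the lithium effects of the genotypes was tested itself. limma called 0 of 16606 genes, 609 of which (3.67%) had an unadjusted p below 0.05, and edgeR called 0 of 17757. DESeq2 called 4, Gm27000, Gdf1, Gm9794 and Gm28048, with fitted log2 differences of 32.25 or more. The largest lithium change of any gene in HT was 4.10 by limma, and these 4 fits are not read as effects of genotype. By limma the smallest p belonged to Gm27000 (5.59 ± 1.46), to Kctd3 (-0.14 ± 0.04), which changed by -0.07 in HT and by 0.07 in WT, and to Gm43081 (1.05 ± 0.29), each with an adjusted p of 1. Among the 64 genes called in HT, 24 had an unadjusted interaction p under 0.05, 17 of them among the falls. Hsp90ab1 changed by -0.21 in HT and -0.07 in WT, Nck2 by -0.20 and 0.02, and Hspa8 by -0.20 and -0.02. As these genes were picked by their HT change, these values are descriptions.

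**Figure D5:**
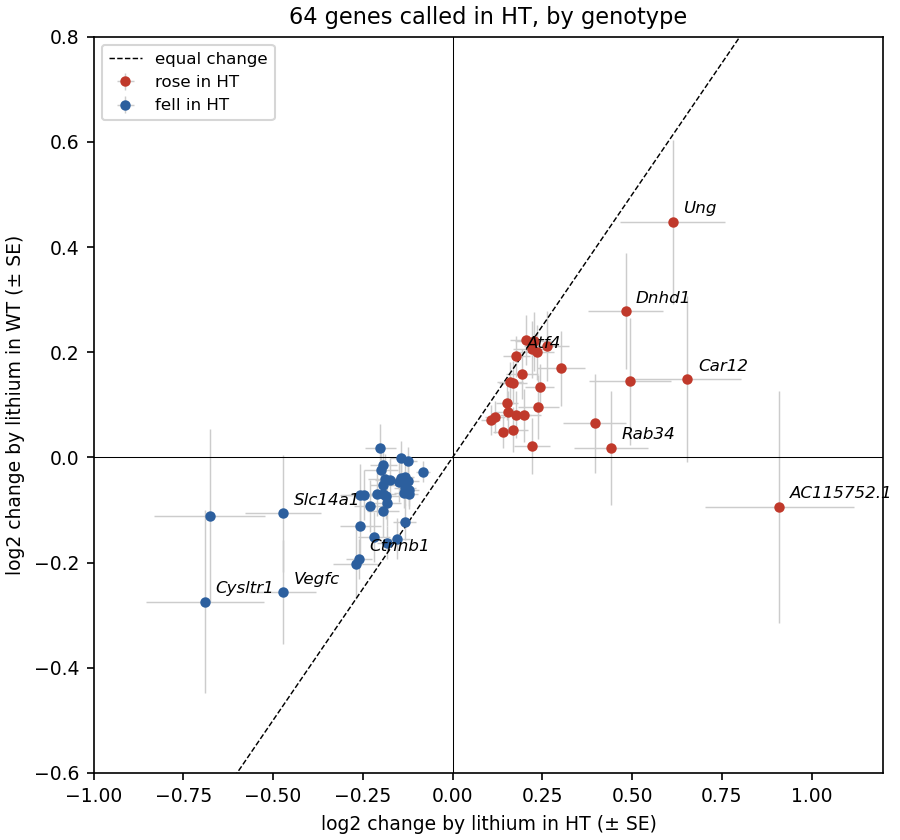
Log2 change by lithium in HT (x axis) and in WT (y axis) of the 64 genes called in HT, each with its SE, and the line of equal change. Of the 64 points, 62 lie on the same side of 0 in both genotypes, mostly nearer to 0 in WT.

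The called genes were also compared between the sexes. All 64 called genes changed to the same side in females and in males. They were chosen on the average of the female and male changes, which favours genes that moved the same way in each sex. The 60.2% of all genes on the same side is thus no fair background, and no conclusion on agreement between the sexes is drawn. Taken alone, females gave 1 called gene, Ctnnb1 (964 genes, or 5.81%, at an unadjusted p under 0.05), and males none by limma (1615, or 9.73%). The female and male changes of all genes correlated at r = 0.10, as a description over genes that share libraries. For the difference between the sexes limma and edgeR called no gene (519 genes, or 3.13%, at an unadjusted p under 0.05 by limma). DESeq2 called Gm4294 and Gm9531, with fitted log2 differences of -43.40 and 38.84, which are likewise not read as effects. By limma the order was as follows. The smallest p belonged to Zfp653 (-0.16 in females, 0.24 in males), Gm15500 (-0.12 and 0.12) and Uqcc2, an assembly factor of complex III (-0.04 and 0.37), each with an adjusted p of 1.

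Lithium and fluoxetine were compared directly in HT mice. The 2 drug groups differed in 324 genes (1.95% of those tested), 154 higher and 170 lower under lithium. Centring each library on its median gave 105 higher and 250 lower, and upper-quartile rescaling 184 higher and 144 lower, so the split between the directions depends on the scaling. Fluoxetine against vehicle in HT gave no called gene by limma (1526, or 9.19%, at an unadjusted p under 0.05), and it shares the vehicle libraries with the lithium comparison. The direct comparison uses the same lithium libraries as the comparison with vehicle. Its smallest p were those of Ppp1r21 (-0.22 under lithium relative to fluoxetine), Ctnnb1 (-0.24), Ufd1 (-0.16), Hsp90ab1 (-0.23) and Eef1a2 (-0.21). Ctnnb1 lay between 16634 and 19116 under fluoxetine, with 14231 to 16787 under lithium.

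Immediate early genes, which follow neuronal firing, separated the drugs more than either separated from vehicle. Of 25 measured, 8 were higher under lithium than under fluoxetine and none lower, against 0.927% and 1.02% of all genes, while none was called for lithium against vehicle. The 8 were Arc, Junb, Dusp1, Gadd45b, Nr4a1, Btg2, Npas4 and Ier2, named as the full set that passed. Arc, which shuttles glutamate receptors from the synapse, lay between 1647 and 7038 under lithium (median 5037), between 616 and 2718 under fluoxetine (median 1390) and between 738 and 8756 under vehicle (median 4426). The vehicle libraries thus overlapped both drug groups over most of their ranges, and 8 lithium libraries were above the highest fluoxetine library. The lithium minus fluoxetine difference of Arc was 1.64 (adjusted p = 0.013), with 0.29 for lithium and -1.35 for fluoxetine against the same vehicle libraries. Gadd45b, an activity- and stress-induced gene, came nearest to a lithium call, with a range of 265 to 492 under lithium and 179 to 400 under vehicle (change 0.49 ± 0.14, adjusted p = 0.1). For fluoxetine against the same vehicle libraries, 1 of the 25 genes had a change above 0 (median -0.44). For lithium against vehicle, 20 of the 25 genes had changes above 0 (median 0.08), and without the libraries rich in neighbouring tissue 11 had (median -0.02). Ddit4, a stress- and glucocorticoid-induced inhibitor of mTORC1, was likewise higher under lithium than under fluoxetine (0.38, adjusted p = 0.028) and had a change of 0.32 ± 0.10 against vehicle (adjusted p = 0.13). Of the 18 glucocorticoid response genes to which it belongs, none was called against vehicle and 12 were above 0.

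How far the calls depended on single libraries was measured by leaving out each of the 20 in turn. In all 20 fits, 20 of the 64 genes stayed called: Ctnnb1, Ppp1r21, Ppif, Pqbp1, Hsp90ab1, Eef1a2, Sobp, Smarcc2, Sh3rf1, Vegfc, Celf4, Fbxl5, Hccs, Rpl14, Npepps, Atf4, Tnfaip1, Ckap5, Nck2 and Basp1. The other 44 lost the call in at least 1 fit, with highest adjusted p from 0.0501 (Usp36) to 0.13 (Ssr4). Under every other alternative with both sexes, 4 of the 64 stayed called: Ctnnb1, Hsp90ab1, Eef1a2 and Dnhd1. The first 3 of these also stayed called in all 20 fits. Of the 64, 25 stayed called without HT lithium male 3, 26 without HT lithium female 5, 36 without HT vehicle male 2 and 35 without HT vehicle male 4. The direct comparison with fluoxetine gave 210 genes in place of 324 without HT lithium male 3. With the libraries rich in neighbouring tissue left out (6 lithium and 8 vehicle libraries kept), 7 genes were called, 2 higher and 5 lower. Of these, 6 were among the 64: Ctnnb1, Pqbp1, Hsp90ab1, Eef1a2, Dnhd1 and Tcea2. All 64 kept their direction in that fit, and the median ratio of a gene's change to its change with all libraries was 0.93.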

How the data were processed

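RNA of mouse prefrontal cortex was sequenced from TruSeq Stranded mRNA libraries, per the labels' protocols. The authors deposited a signal per gene and library: reads scaled by the library's size factor. Salmon 0.11.2, R 3.6.0 and DESeq2 1.19.11 with GRCm38 are named per the submitters' processing notes, without their roles. Dividing by each library's smallest step gave back whole reads for 100% of values (tolerance 1e-04). In 6 libraries the size factor was within 1% of 1, where this check tells scaled from unscaled reads less well. Size factors ranged from 0.787 to 1.23 in the 20 HT lithium and vehicle libraries.

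Log2(value + 1) of genes with a mean of at least 10 was fitted with limma 3.58.1 (trend, R 4.3.3), with 12 means of genotype, drug and sex over 58 libraries (46 residual degrees of freedom) and Benjamini-Hochberg adjustment at 0.05. Fold changes on this scale understate those of low genes. Recovered reads were also tested with edgeR 4.0.16 and DESeq2 1.42.0. Methods were tested on simulated data. GENCODE M21 named 18077 of 18088 genes.

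The comparison and the 47 gene lists were chosen with earlier results of these data known. Named were, by rule, the 10 largest called rises and falls (mean at least 50, no predicted or clone names), the 10 called genes of smallest p below the median absolute change, the 8 most abundant called genes, up to 4 called members of each list or else the 2 of smallest p, the 5 called genes of smallest p in each other contrast or else 3, and Tbl1xr1. Cdh2, Eef1g, Eef1e1, Eif5a2, Apc, Gsk3a, Gsk3b, Zfp938 and Cysltr1 were named outside it where no part of it covers them, after their values were seen. Alternatives were pseudocounts of 0.5 and 5, other minimum means, other scalings, array weights, the compared groups alone, a replicate block, marker covariates, each sex, and each library left out. Removal of a GC and length trend, and of libraries rich in neighbouring tissue, were chosen after seeing the data.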

Additional observations from a re-analysis of the deposited data

Results flagged for a closer look

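In 8 of 132 checks, 1 library of a group of 5 stood apart from the other 4 for a named gene, where chance flags about 1 in 20. Car12 was 610 normalised reads in HT lithium male 1, with 369 next, and this library also held the choroid plexus markers. Rab34 was 341 in the same library, the lowest of its group, with 441 next. Rpl14 was 2532 in HT lithium female 2, the library rich in striatal markers, with 2233 next. Ssr4 was 1130 in HT lithium male 3, with 957 next, and Napepld was 391 in HT lithium male 5, with 358 next. Under vehicle, Fbxl5 was 2685 in HT female 4 (2367 next), Pcdhga12 was 908 in HT male 3 (774 next), and Eef2 was 24682 in HT female 1, the lowest, with 26774 next. For Rpl14, Fbxl5, Eef2, Napepld and Rab34 the library apart lay toward the other treatment.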

How the results depend on the processing

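For lithium against vehicle (64 genes), each gene kept its direction in every alternative that gave it a value (62 of the 64 under a minimum mean of 50 and by DESeq2, 64 in the others). The count was 109 with array weights, 183 by DESeq2, 176 with olfactory bulb and 29 with choroid plexus markers as a covariate, 139 with the GC and length trend removed, 16 with the compared groups alone, 1 in females, 0 in males and 7 without tissue-rich libraries. Leaving out 1 library gave 25 to 84. For lithium against fluoxetine (324 genes) it was 193 with the compared groups alone, 635 and 118 with those covariates and 117 without tissue-rich libraries, and 210 to 482 with 1 library left out. The genotype and sex differences stayed at 0 except by DESeq2 (4 and 2), and with 1 library left out both stayed at 0. The cause of these moves was not tested, except that fewer libraries enter some fits. limma, edgeR and DESeq2 all called 59 of the 64. Same-numbered lithium and vehicle libraries correlated at -0.23 to 0.39 over 10 pairs, with 3 best with their own number. The fit treats them as unpaired, and whether same-numbered libraries share a litter or batch was not tested. A replicate block gave 62 genes, 56 of them among the 64, and 312 against fluoxetine. Precision is limited by 5 libraries per sex and, for genes such as Cysltr1, by levels of 12.7 to 50.2 normalised reads.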
